A study of Homo sapiens with 4 samples.

Results

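MT-ND2 (ND2) is the mitochondrial mRNA for subunit 2 of NADH dehydrogenase, which is complex I of the respiratory chain. Its reactivity with dimethyl sulfate (DMS) was read along all 1042 nt, at positions 4469 to 5510 of the heavy-strand data, out of 16500 positions on that strand. Of these positions 675 were A or C, the bases whose Watson-Crick face DMS methylates, and 669 of them were tested, out of 9910 tested on the strand. The remaining 367 G and T positions served as background. Members were defined by position and base, with earlier results of these data known. The tested positions were further limited by their mean mismatch fraction over all libraries.

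The mitochondria came from HEK-293T, an established line of human embryonic kidney cells, and were treated after isolation with 1% DMS for 5 min at 37 °C. The TGIRT-III reverse transcriptase then left mismatches at methylated bases. There were 2 libraries from wild-type mitochondria and 2 from mitochondria without LRPPRC, all labelled as biological replicates and all treated with DMS. How the knockout was made, and whether it is a single clone, is not given in the sources used here, and the nuclear LRPPRC transcript was not analysed here. A library without DMS was not analysed here, and the data hold fractions without read counts, so the depth is unknown.

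DMS reaches A and C where no partner base covers them, so a low mismatch fraction marks a paired or shielded base and a high fraction an open base. The heavy strand of mitochondrial DNA encodes most mitochondrial mRNAs within long precursors, and ND2 is cut out between the tRNAs for methionine and tryptophan. LRPPRC binds mitochondrial mRNAs together with SLIRP and is known for keeping them stable, polyadenylated and open to translation. ND2 begins at its start codon, an ATT, and its stop codon is completed by the poly(A) tail.

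Positions are in the numbering of the data, which beyond position 3106 is 1 lower than that of the gene table (GRCh38.p14, where ND2 spans chrM:4470-5511). With that shift 12 of 12 heavy-strand mRNAs read as open frames, and 0 without it. ND2 has 347 complete codons and 1 further base. It is poor in G, with 99 G (9.50%) against 349 C (33.5%), 326 A (31.3%) and 268 T (25.7%).

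The sequences below carry the main result. The hairpin of the highest predicted pair probability is printed with its flanks (chrM:5199-5238, heavy-strand transcript, capitals for the bases paired in the fold of the sequence alone). It was singled out after its values were seen. The 25-nt surroundings of the 3 C positions with the highest wild-type mismatch follow, with the measured base in capitals (chrM:5203-5227, chrM:5323-5347 and chrM:5446-5470).
Hairpin with flanks: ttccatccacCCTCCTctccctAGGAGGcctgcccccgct
C at 5215: atccaccctcctCtccctaggaggc
C at 5335: caccctccttaaCctctacttctac
C at 5458: ccccacactcatCgcccttaccacg

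ND2 was less reactive in the knockout, and C lost more than A. Over the tested A and C positions the mean mismatch of the libraries was 3.70% and 3.69% for wild type, and 2.43% and 2.44% for the knockout. The group means were 3.69% ± 0.00966 (SD, n = 2) and 2.43% ± 0.0112 (SD, n = 2). The difference of -1.26 percentage points was far larger than either SD (p = 0.333 by a two-sided exact permutation test, the lowest value that 2 libraries against 2 allow).

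At A the mean went from 2.88% in both wild-type libraries to 2.23% in both knockout libraries. At C it went from 4.42% and 4.40% to 2.59% and 2.62%. Wild type thus stood 1.29-fold above the knockout at A and 1.69-fold at C. The ratio of the C mean to the A mean moved from 1.53 ± 0.0075 to 1.17 ± 0.0110 (SD, n = 2 each).

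The background bases G and T also read lower in the knockout within ND2. The G mean was 0.472% and 0.434% in wild type against 0.391% and 0.419% in the knockout, and the T mean was 1.11% and 1.06% against 0.779% and 0.776%. The groups did not overlap at either base. In the other 11 heavy-strand mRNAs the G mean was instead 0.453% and 0.418% in wild type against 0.528% and 0.564% in the knockout. Their T mean overlapped between the groups, with 1.02% and 0.985% in wild type against 0.997% and 1.01% in the knockout. Over both background bases the ratio of ND2 to these mRNAs was 1.12 ± 0.00409 in wild type against 0.792 ± 0.00739 in the knockout (exact permutation p = 0.333, the smallest possible, n = 2 each). Within ND2 the mean at A and C divided by the mean at G and T gave 4.02 ± 0.130 in wild type against 3.57 ± 0.00228 in the knockout. In the other 11 mRNAs this ratio was 4.32 ± 0.105 in wild type against 2.66 ± 0.0418 in the knockout, a larger fall.

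**Figure D1:**
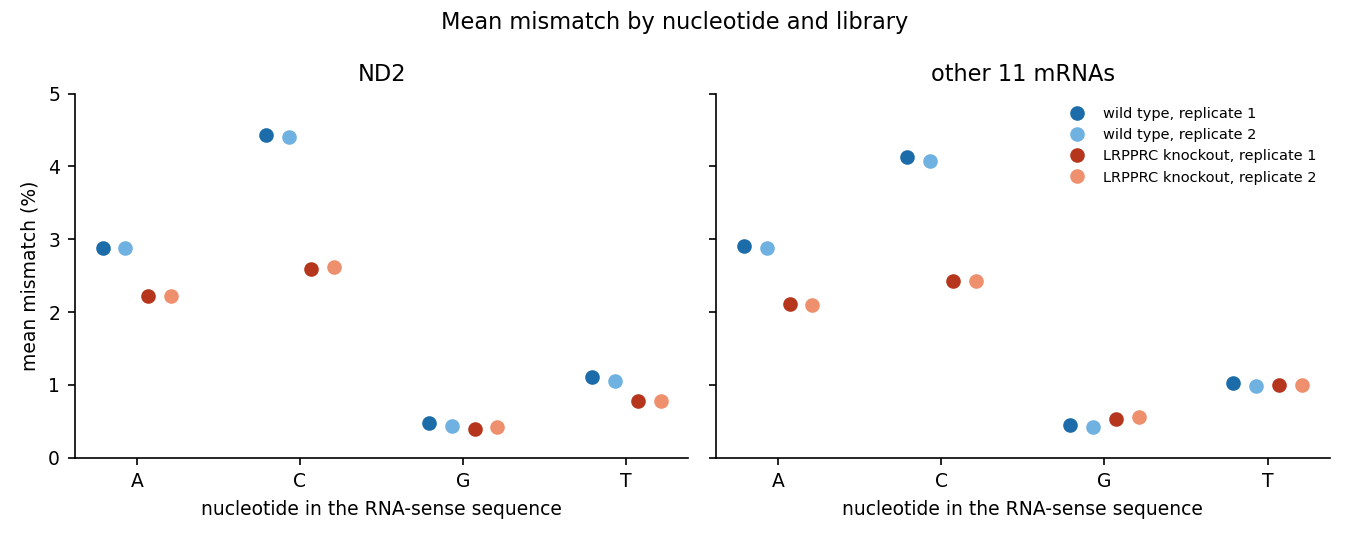
Mean mismatch (%) at A, C, G and T positions with a mean fraction of at most 0.3, in ND2 (left) and the other 11 heavy-strand mRNAs (right), with 1 point per library. In ND2 all 4 bases read lower in the knockout, with C going from 4.42% and 4.40% to 2.59% and 2.62%. In the other mRNAs G read higher in the knockout and T overlapped between the groups.

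Relative to the other 11 mRNAs, each weighted equally, ND2 lay 0.099 log2 units higher in wild type against 0.11 higher in the knockout, a difference of 0.010 (exact permutation p = 0.667, n = 2 each). Leaving out each library gave 0.0031 without wild-type replicate 1, 0.017 without wild-type replicate 2, 0.018 without knockout replicate 1 and 0.0035 without knockout replicate 2. Among the 12 mRNAs the A mean of ND2 ranked 6 in both groups, and its C mean ranked 4 in wild type against 5 in the knockout. The C mean of 4.41% in wild type lay between 4.44% in ATP8 and 4.31% in ND5, and the 2.60% in the knockout between 2.61% in ND3 and 2.51% in ND5. The mRNAs most like ND2 over 8 values (A and C means of each library, on the log2 scale) were ATP6 at a distance of 0.195, CYTB at 0.201 and ND5 at 0.249. ATP6 encodes a subunit of ATP synthase, CYTB a subunit of complex III and ND5 another subunit of complex I.

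Tests at single positions used log2(fraction + 0.001) with limma, which understates the change at low positions. The library medians over the strand differed by -0.63 log2 units (knockout minus wild type), and values were centred on them, so a centred change is relative to this shift. On this scale ND2 as a whole rose by 0.11 (SE 0.00519, limma adjusted p = 4.43e-05), where 82.1% of the 28 heavy-strand genes were called in either direction. Without centring it fell by 0.52 (limma adjusted p = 9.63e-08), and a pseudocount of 0.01 took the centred change to 0.059.

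Of the 669 positions 543 (81.2%) changed after centring, against 71.5% of all tested positions of the strand. The 375 higher positions made 56.1% of ND2 against 44.9% of the strand, and the 168 lower positions made 25.1% against 26.6%. Without centring 27 (4.04%) were higher and 598 (89.4%) lower, against 4.73% and 78.3% of the strand. At 651 positions (97.3%) the raw fractions of wild type and knockout were free of overlap, as at 92.1% of the strand. The share of centred rises in ND2 was thus above that of the strand, while the share of positions higher in absolute terms was near it.

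The direction after centring followed the base. Of 321 A positions 262 were higher and 6 lower, with a median change of 0.28 against 0.24 over all A positions tested. Of 348 C positions 113 were higher and 162 lower, with a median of -0.064 against -0.033 over all C positions tested. Over both bases 44.9% of the strand's tested positions were higher and 26.6% lower, and these shares were not counted for each base. The strand medians split by base in the same way, so the split was not particular to ND2. Without centring the medians were -0.35 at A and -0.69 at C. When A and C were each centred on their own library median, the ND2 medians were 0.15 and 0.11, with 368 positions higher and 127 lower.

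The profile became flatter. The Gini index, which grows as the signal gathers on fewer positions, was 0.250 and 0.251 in wild type against 0.210 in both knockout libraries. It changed by -0.0405 (SE 0.00171, limma adjusted p = 0.00353), and 42.9% of the heavy-strand genes had a lower index by the same test. These were the 12 mRNAs, so that each mRNA became flatter, and the index of ATP6 (-0.0450), ND3 (-0.0408) and ND4L (-0.0573) changed by more than that of ND2. Within A positions alone the change was -0.0168 and within C positions alone -0.0109. Without knockout replicate 1 the adjusted p was 0.0519.

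The range shows the same flattening in raw values. At C the highest position had 23.2% and 22.9% in wild type against 5.63% and 5.82% in the knockout, and the median went from 4.32% in both libraries to 2.53% and 2.55%. C positions over 5% numbered 123 and 122 in wild type against 4 and 6 in the knockout. At A the highest position had 8.65% and 8.54% in wild type against 5.73% and 5.86% in the knockout. At the low end, A positions under 1% numbered 12 and 13 in wild type and 14 in each knockout library, and C positions under 1% went from 11 and 12 to 19 and 17.

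The loss grew with the wild-type level. Positions of each base were sorted by wild-type replicate 1 into 4 bins of equal size and compared in the other libraries. In the lowest bin of C the mean was 2.25% in wild-type replicate 2 and 1.56% in the knockout, a ratio of 0.694. In the highest bin it was 6.78% and 3.64%, a ratio of 0.537. At A the ratio went from 0.857 in the lowest bin to 0.728 in the highest. Both knockout libraries lay above wild-type replicate 2 at 17 of 81 A and 19 of 87 C positions of the lowest bins. In the next bins this held at 4 of 80 A and 2 of 87 C positions, and in the upper 2 bins at 0. The same share was not counted over the strand.

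Across ND2 positions, which are not independent replicates, Pearson's r of the log2 values was 0.996 between the wild-type libraries and 0.997 between the knockout libraries. Between the groups it ranged from 0.849 to 0.858, and its mean ranked 9 of the 12 mRNAs, where rank 1 is the most similar.

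**Figure D2:**
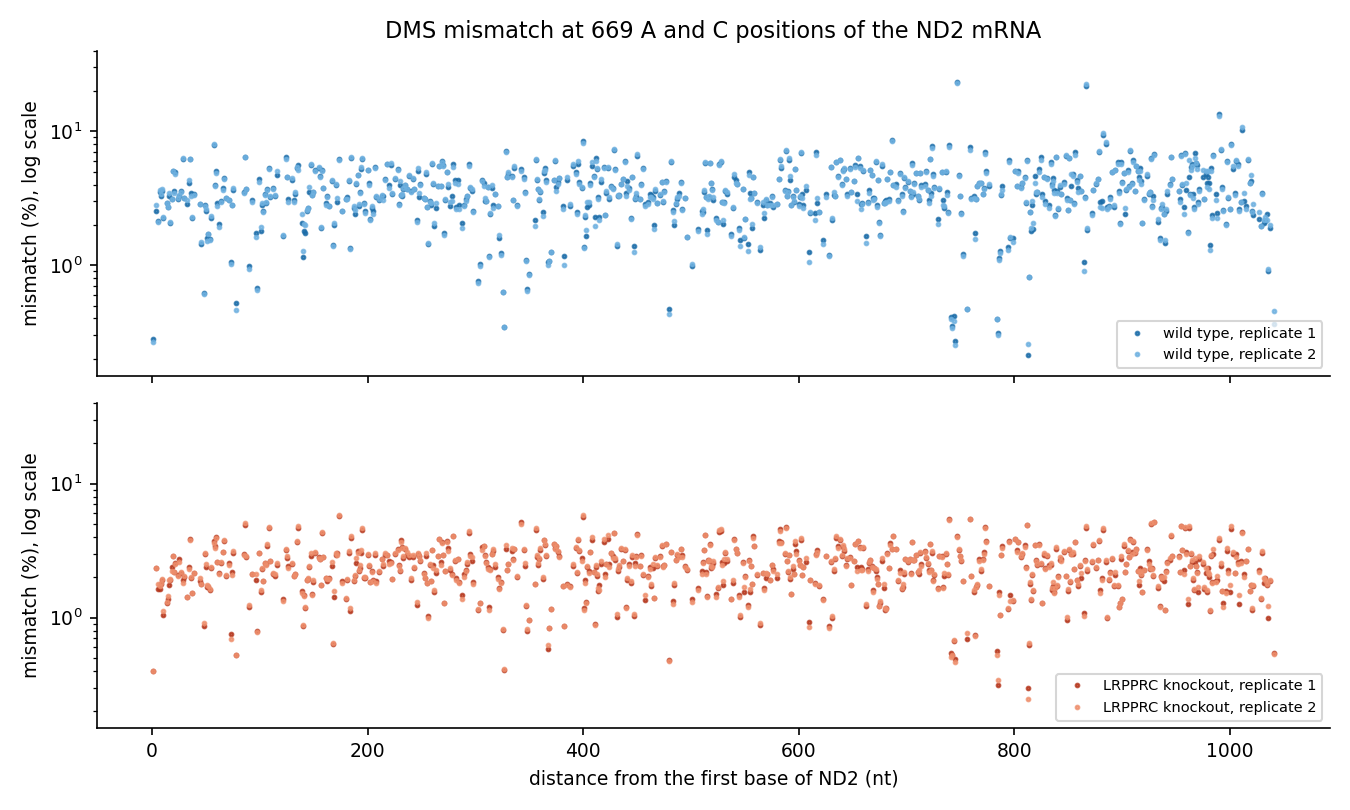
Mismatch (%, log scale) at the 669 tested A and C positions against the distance from the first base of ND2 (nt), for the 2 wild-type libraries (top) and the 2 knockout libraries (bottom), with 1 point per position and library. The peaks of 23.2% and 21.8% in wild type are absent from the knockout, where no tested position exceeds 5.86%, and the C positions of the stem at 5209 are among the low points of both panels.

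The clearest structure lay in the hairpin printed above, whose stem is at chrM:5209-5226. Its 6 base pairs enclose a loop of 6 nt, with a mean pair probability of 0.963 from sequence alone. The 6 A and C positions of the stem averaged 0.523% and 0.502% in wild type, and the 4 C positions of the loop averaged 8.41% and 8.30%. In the knockout the stem averaged 0.801% and 0.806% and the loop 3.19% and 3.21%. The stem was thus higher and the loop lower in both knockout libraries, without overlap between groups. These stem means were near those of the background bases of ND2. The background means were 0.453% at G and 1.09% at T in wild type, against 0.405% and 0.778% in the knockout. Whether the rise of the stem reflects DMS reactivity or background was not tested.

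The level changed sharply at the 5′ border of the stem. The C at 5208, next to the stem on the 5′ side, had 7.95% and 7.66% in wild type against 5.42% and 5.39% in the knockout. The adjacent C at 5209, the outermost stem base, had 0.413% and 0.398% and then 0.543% and 0.511%. On the 3′ side, where the last stem bases are G, the C at 5227 just outside had 7.61% and 7.21% in wild type against 5.47% and 5.46% in the knockout. In all 4 libraries both bases just outside the stem lay far above the stem base at 5209. Between the loop and the 3′ side of the stem the step was small, from 2.43% at C 5219 to 1.19% at A 5221 in wild type and from 2.67% to 1.88% in the knockout.

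Within the stem all 6 A and C positions were higher in the knockout without overlap of the groups. In either direction, the groups were free of overlap at 97.3% of tested ND2 positions and 92.1% of those of the strand. Positions called higher without centring made 4.04% of ND2 and 4.73% of the strand. The C at 5213 had 0.270% and 0.252% in wild type against 0.492% and 0.467% in the knockout. It showed the largest centred rise of ND2, 1.31 log2 units (SE 0.109, limma adjusted p = 0.000735), and rose by 0.68 without centring. Its predicted partner is the base at 5222, with a pair probability of 0.992.

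The C at 5212, facing 5223 with a probability of 0.992, had 0.417% and 0.386% in wild type against 0.663% and 0.680% in the knockout, a centred change of 1.25. The A at 5221, which closes the loop with 5214 at a probability of 0.868, had 1.21% and 1.17% and then 1.88% in both knockout libraries, also a centred change of 1.25. These 3 stem bases are among the 5 positions of ND2 with the largest rise. Their knockout levels stayed below the 2.54% median of ND2 C positions in the knockout.

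The loop held the largest fall of the mRNA. The C at 5215, its 5′ base, had 23.2% and 22.9% in wild type against 4.06% and 4.01% in the knockout. Its centred change was -1.86 (SE 0.0345, limma adjusted p = 8.97e-05) and -2.49 without centring. The other loop C positions moved less, from 4.65% ± 0.0502 to 3.23% ± 0.0502 at 5217 and from 3.27% ± 0.0127 to 2.88% ± 0.0191 at 5218 (SD, n = 2). At 5219, towards the 3′ side of the loop, the mean was 2.43% ± 0.0233 in wild type against 2.67% ± 0.0573 in the knockout, a centred change of 0.76.

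The T at 5216, beside the peak, was among the 3 highest background positions of ND2. It had 2.90% and 2.52% in wild type against 0.799% and 0.772% in the knockout. The base facing 5215 on the opposite strand is a G, which this readout takes as background, and had 14.4% and 14.7% in wild type against 0.871% and 0.811% in the knockout. The part of this opposite-strand signal in the fall at 5215 was not tested.

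**Figure D3:**
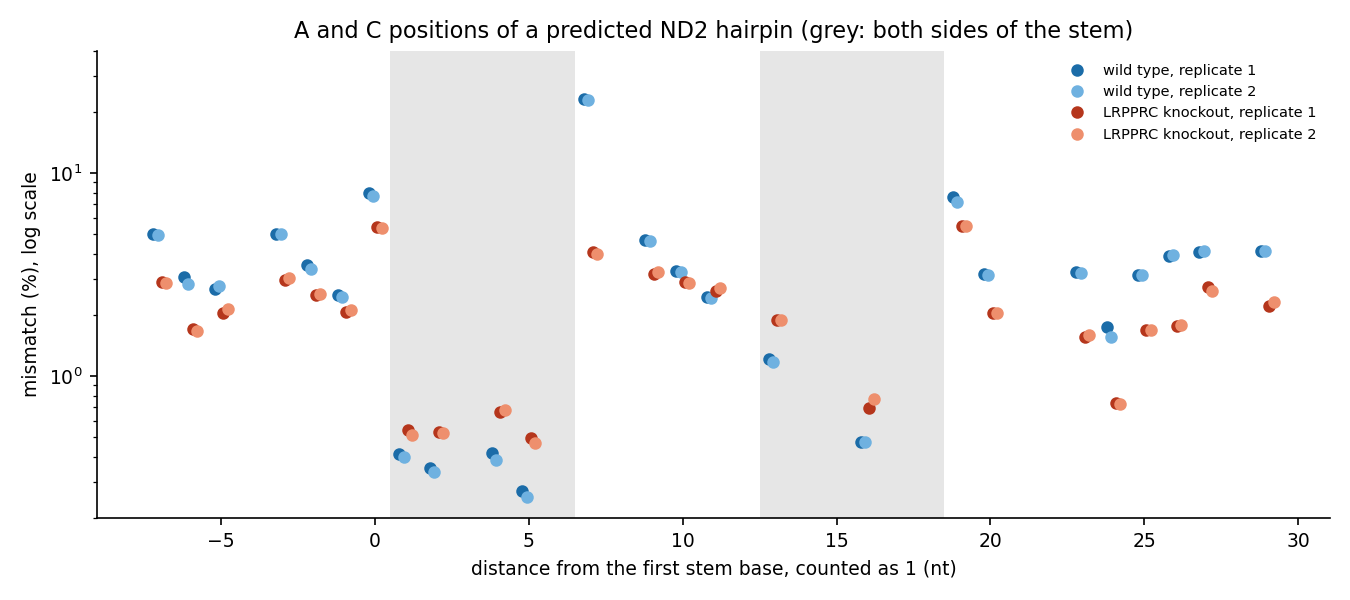
Mismatch (%, log scale) at the A and C positions in and around the hairpin, against the distance from its first stem base (nt), with 1 point per library and both sides of the stem in grey. Stem positions average 0.523% and 0.502% in wild type against 0.801% and 0.806% in the knockout, while the first loop base goes from 23.2% and 22.9% to 4.06% and 4.01%.

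A second strong hairpin follows at chrM:5251-5262, with 4 pairs and a mean pair probability of 0.877. It was also chosen after its values were seen.
Second hairpin: GCCCaaatGGGC
Its 4 tested stem positions averaged 0.803% and 0.775% in wild type against 0.893% and 0.876% in the knockout. The 3 tested loop positions averaged 2.85% and 2.76% and then 2.46% and 2.44%. The stem mean was higher and the loop mean lower in the knockout, by smaller amounts than in the hairpin before it. This stem mean was likewise near the means of the background bases. Its stem bases were mixed: C 5254 had 1.14% and 1.10% and then 1.54% and 1.47%, C 5253 overlapped between the groups, and C 5262 had 1.36% and 1.30% and then 1.16% and 1.17%.

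The 3 hairpins of 20 to 100 nt with the highest mean pair probability are longer and lie in the 5′ and middle parts of ND2. They are printed with paired bases in capitals, at chrM:4568-4648 (17 pairs, probability 0.941), chrM:5028-5101 (13 pairs, 0.821) and chrM:4513-4566 (15 pairs, 0.810).
Hairpin at 4568: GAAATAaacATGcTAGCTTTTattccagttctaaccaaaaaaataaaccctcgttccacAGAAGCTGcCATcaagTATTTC
Hairpin at 5028: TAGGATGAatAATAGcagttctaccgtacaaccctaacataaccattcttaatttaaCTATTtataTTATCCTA
Hairpin at 4513: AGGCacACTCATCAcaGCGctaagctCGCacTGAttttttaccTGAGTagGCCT

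These stems were far less protected than that at 5209. In the hairpin at 4568 the 15 paired A and C positions averaged 2.90% and 2.94% in wild type, and the 32 unpaired positions 3.77% and 3.80%. In the knockout these means were 1.96% and 1.99% against 2.62% and 2.65%. The ratio of unpaired to paired was 1.30 ± 0.00395 in wild type against 1.33 ± 0.00348 in the knockout (SD, n = 2).

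The hairpin at 5028 was similar, with a ratio of 1.35 ± 0.0151 in wild type against 1.37 ± 0.00838 in the knockout. The hairpin at 4513 had more contrast, with a ratio of 1.75 ± 0.00265 in wild type against 1.65 ± 0.00583 in the knockout. Its paired positions spanned 0.493% to 7.97% in wild type, so that some predicted pairs were among the open bases by reactivity. The 2 remaining hairpins with at least 4 pairs and a probability of 0.8 or more also had weakly protected stems. The short hairpin at chrM:4990-5007 (5 pairs, 0.828) had 3.85% and 3.88% at its unpaired positions in wild type. Its stem mean was 2.43% ± 0.00184 in wild type against 1.81% ± 0.0161 in the knockout (SD, n = 2). The stem at chrM:4848-4963 (7 pairs, 0.838) went from 3.11% and 3.05% to 2.27% and 2.23%. Of the 7 such hairpins, the stem mean was higher in the knockout only in those at 5209 and 5251.

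The predicted pairing separated the reactivity more clearly at C than at A. Pair probabilities came from RNAplfold, which uses the sequence alone. At the 238 C positions with an unpaired probability over 0.8 the mean was 4.89% and 4.86% in wild type, and at the 20 under 0.2 it was 1.53% and 1.54%. In the knockout these means were 2.81% and 2.85% against 1.22% and 1.23%. The spread between open and paired C was therefore smaller in the knockout in absolute terms.

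At A the contrast was weaker. The 225 A positions over 0.8 had 2.97% in both wild-type libraries, and the 19 under 0.2 had 1.98% in both. In the knockout they had 2.28% against 1.67% and 1.70%. The 77 A positions between these limits had 2.97% and 2.99% in wild type, no lower than the open class.

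The area under the ROC curve, the chance that an open position exceeds a paired position in the same library, was 0.855 and 0.851 in wild type against 0.842 and 0.836 in the knockout, averaged over A and C. The difference of -0.0141 exceeded the SD of each group (0.00261 and 0.00355; exact permutation p = 0.333, the smallest possible, n = 2 each). For C alone the area was 0.945 ± 0.00423 and 0.922 ± 0.000891, and for A alone 0.761 ± 0.00099 and 0.756 ± 0.00620. With all tested positions classed by the fold of the sequence alone, the area averaged over A and C was lower. It was then 0.673 in wild type against 0.666 in the knockout. Over all 348 C positions Spearman's rho with the unpaired probability was 0.333 in wild type against 0.229 in the knockout, and over 321 A positions 0.0516 and 0.0589, as a description.

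The changes were also sorted by predicted pairing. Of the 39 positions with an unpaired probability under 0.2, 30 were higher and 3 lower after centring, with a median change of 0.62. Of the 463 over 0.8, 250 were higher and 125 lower, with a median of 0.14. Without centring 13 of the 39 were higher and 18 lower (median -0.013), against 7 higher and 433 lower of the 463 (median -0.49). Over the strand 44.9% of tested positions were higher and 26.6% lower after centring, and 4.73% and 78.3% without it. The median of the paired class thus lay near its wild-type level and that of the open class below it. The paired class also had the lower wild-type level, and pairing was not separated from level or from background here.

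**Figure D4:**
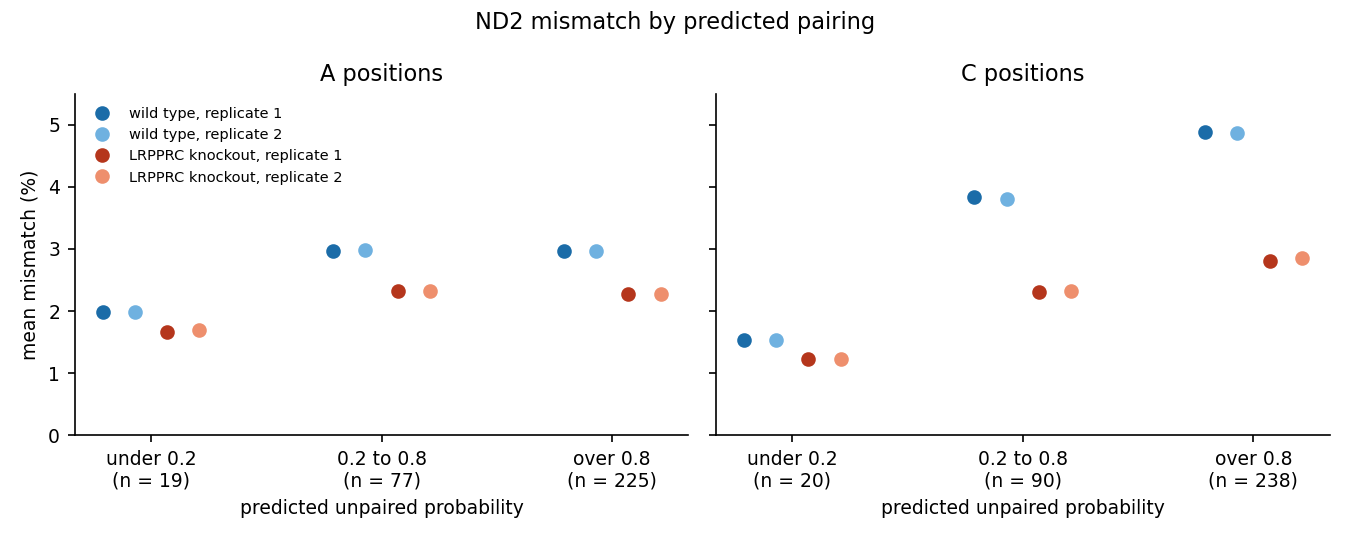
Mean mismatch (%) at A (left) and C (right) positions of ND2 by the unpaired probability predicted from sequence, with 1 point per library and the number of positions under each class. Open C positions go from 4.89% and 4.86% in wild type to 2.81% and 2.85% in the knockout, and paired C positions from 1.53% and 1.54% to 1.22% and 1.23%.

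The fold of the whole mRNA from sequence had a free energy of -97.28 kcal/mol and 139 pairs, which leaves most of ND2 open (26.7% of nt paired). Folds guided by the reactivity of each library gave 126 pairs in both wild-type models and 124 in both knockout models. All 4 guided models shared 123 pairs, of which 117 were also in the fold from sequence. These models contain the reactivity as input and are given as a description. The 6 pairs of the hairpin at 5209 were in each of them.

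In the hairpin at 5028, 12 of 13 pairs were in the wild-type models and 13 in the knockout models. The hairpins at 4568 and 4513 kept all 17 and 15 pairs in all 4 models. The modelled secondary structure was nearly the same in both groups. Before folding, the values of each library were divided by the mean of its highest 5% at the same base. This removes a difference in level, and most shared pairs also came from the sequence alone. The likeness of the models therefore cannot show whether pairing was the same in both groups.

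Apart from the hairpin, the largest falls were isolated C positions and an A. The C at 5335 had 21.8% and 22.5% in wild type against 4.67% and 4.86% in the knockout, a centred change of -1.56 (SE 0.0444, limma adjusted p = 0.00013). The facing base of the opposite strand had 9.39% and 10.0% in wild type against 0.779% and 0.778% in the knockout. The C at 5458 had 13.5% and 13.0% and then 3.81% and 3.96%, a centred change of -1.12, with 2.47% and 2.42% against 0.727% and 0.790% on the opposite strand.

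The A at 4497, in the 5′ part of the mRNA, had 6.18% and 6.36% in wild type against 1.89% and 1.81% in the knockout (centred change -1.08). The C at 5364 had 5.88% and 5.75% and then 1.73% and 1.75% (centred change -1.06). The next highest wild-type positions fell less, the C at 5480 from 10.2% and 10.9% to 4.35% and 4.29% and the C at 5351 from 9.38% and 9.78% to 4.53% and 4.68%. The largest falls were taken only from positions that passed the limma test without overlap between groups, so this was fixed by the choice. The C positions at 5480 and 5351, chosen by their wild-type level, met both conditions as well.

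The other two of the 5 largest centred rises were at 4770 and 4792. The C at 4770 had 0.760% and 0.734% in wild type against 1.14% and 1.15% in the knockout, a centred change of 1.18, and its predicted partner is the base at 4685 with a probability of 0.951. The A at 4792 had 1.24% and 1.20% and then 1.86% and 1.82%, a centred change of 1.18. Both lay under the ND2 median of their base in each library. Rises of nearly the same size followed, among them 1.17 at A 5224 and 1.13 at C 5210, both in the stem at 5209, and 1.10 at C 4516.

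The A at 4792 precedes a run of 5 C positions at 4794 to 4798 that shows a border inside a run of equal bases. The first 2, paired in the fold from sequence, had 0.634% and 0.626% at 4794 and 0.348% in both wild-type libraries at 4795. The next, unpaired, had 7.14% and 7.03% at 4796. In the knockout the same bases had 0.811% and 0.822%, 0.408% and 0.416%, and 3.25% and 3.48%. The step between neighbours was present in all 4 libraries.

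The opposite strand read together with ND2 in wild type. Facing ND2 A and C positions, where its bases are T and G, the opposite strand had a mean mismatch of 2.06% and 2.10% in wild type. In both knockout libraries this mean was 0.773%. Its Pearson r with the ND2 value at the same place was 0.782 and 0.754 in wild type against 0.315 and 0.331 in the knockout, over 673 positions of the same libraries. At ND2 G and T positions the facing bases are C and A. Their mean went the other way, from 1.83% and 1.82% in wild type to 2.18% and 2.20% in the knockout. At these positions r was 0.433 and 0.438 in wild type against 0.299 and 0.308 in the knockout. The part of this shared signal in the lower A and C values of the knockout was not tested.

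Along the mRNA, 50-nt windows were counted from the first base of ND2. Of its 21 windows 17 were higher after centring and 3 lower, against 59.8% and 24.5% of windows on the strand. Without centring all 21 were lower, against 90.3% of windows on the strand. The centred rises therefore again stand for smaller losses than the strand median.

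The largest centred rises were in nt 301 to 350 and nt 51 to 100. The former went from 2.95% and 2.94% in wild type to 2.29% and 2.30% in the knockout, and the latter from 3.04% and 2.99% to 2.44% and 2.45%. Both changed by 0.43 after centring (SE 0.0144 and 0.0142, limma adjusted p = 6.95e-07 for each) and by -0.20 without it. In wild type they ranked 20 and 19 of the 21 windows when A and C were each set against their own median over the mRNAs. The former holds the run of C just described and the latter most of the hairpin at 4513.

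The largest falls were towards the 3′ end. Nt 851 to 900, with the peak at 5335, went from 4.72% and 4.71% to 2.39% and 2.43% (centred change -0.18, limma adjusted p = 4.68e-06). Nt 951 to 1000, with the peak at 5458, went from 4.37% and 4.33% to 2.42% and 2.47% (centred change -0.12, limma adjusted p = 9.14e-05). These windows hold 48% C, and with A positions alone they changed by 0.10 and 0.13 instead. Their direction therefore depended on the C positions.

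The window with the lowest level for its bases in both groups was nt 751 to 800, which holds the 3′ side of the short hairpin and the whole second hairpin. It had 3.05% and 2.99% in wild type against 2.19% and 2.17% in the knockout, and G made up 24% of it. The window with the highest level for its bases in both groups was nt 901 to 950, with 3.99% and 3.96% in wild type against 2.66% in both knockout libraries.

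**Figure D5:**
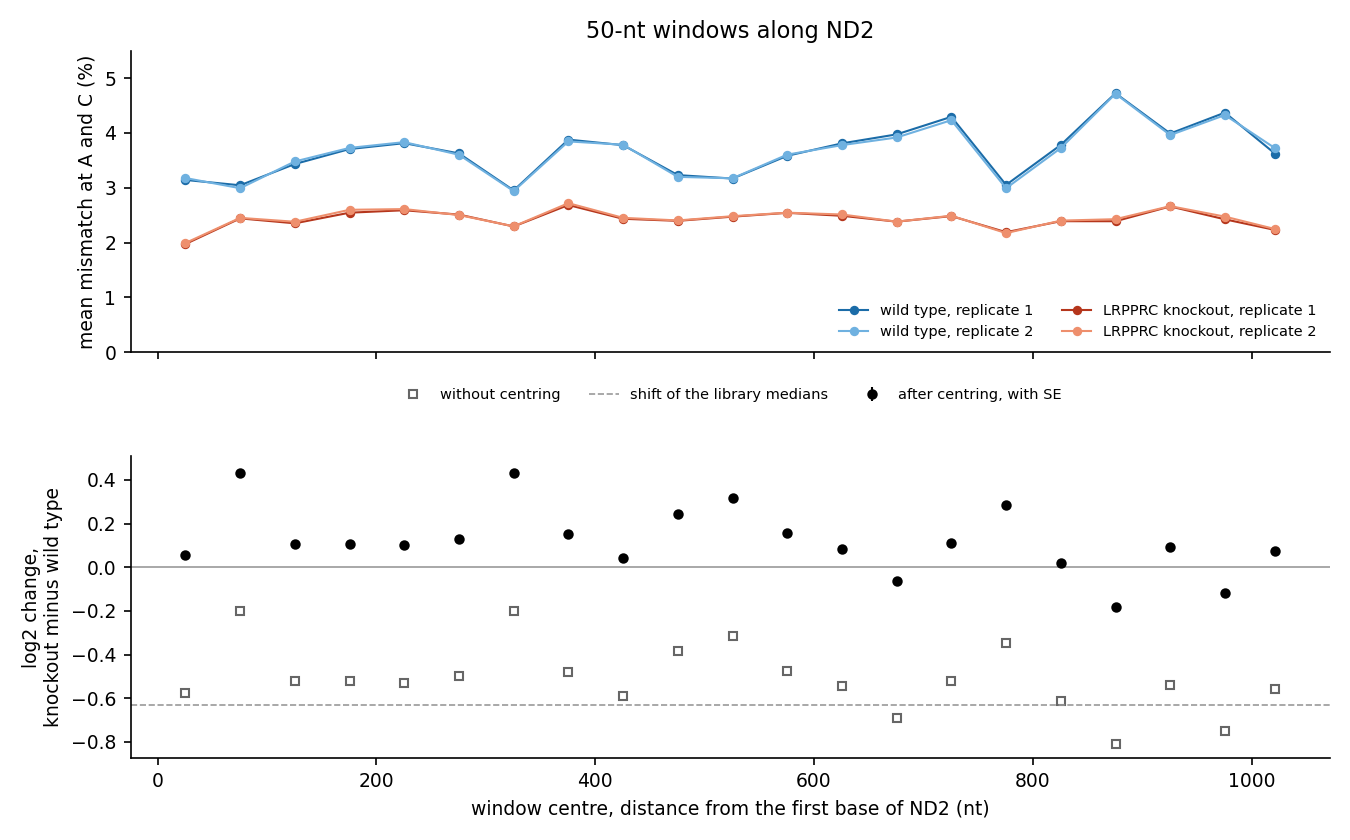
Mean mismatch at tested A and C positions (%, top, 1 line per library) and log2 change, knockout minus wild type (bottom, black points after centring, with SE bars within the points, and open squares without), in 50-nt windows against the distance from the first base of ND2 (nt). The dashed line marks the shift of the library medians, -0.63. Wild type ranges more widely over the windows than the knockout, and all open squares lie below 0.

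The outermost A positions of the mRNA were read at low levels. The sequences of both ends are printed with the first codon in capitals (chrM:4469-4518), and with the last codon and the base after it in capitals (chrM:5469-5510).
First 50 nt: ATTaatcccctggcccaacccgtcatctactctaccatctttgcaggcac
Last 42 nt: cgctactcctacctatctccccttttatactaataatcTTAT
The A of the start codon had 0.282% and 0.267% in wild type against 0.397% and 0.396% in the knockout, among the lowest of the mRNA although it was predicted to be unpaired. The A at 5509, in the last codon, had 0.364% and 0.452% and then 0.541% and 0.534%. The T at 5507, which opens the last codon, had 1.36% and 2.02% and then 0.889% and 0.868%. At the last base of ND2, the T at 5510, the mismatch was 0.187% and 0.181% in wild type against 0.735% and 0.776% in the knockout.

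Over the first 50 nt as a whole, the log2 level matched for base was -0.27 relative to the rest of ND2 in wild type against -0.28 in the knockout, a difference of -0.0081 (exact permutation p = 1, n = 2 each). The 20 C positions there averaged 3.37% ± 0.0127 in wild type against 4.47% ± 0.0216 at the 328 C positions of the rest, and 1.98% ± 0.0274 against 2.64% ± 0.0226 in the knockout. The 5′ end was thus less reactive than the mean of the body in all 4 libraries, and a difference between groups was not detected. By level for its bases this window ranked 18 of 21 in wild type and 20 in the knockout, so lower windows lay inside the mRNA.

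Codon positions were nearly even. Base-matched levels at the third codon position exceeded those at the other two by 0.031 log2 units in wild type against 0.036 in the knockout (difference 0.0043, exact permutation p = 1, n = 2 each). C means in wild type were 4.04% ± 0.0146, 4.56% ± 0.0133 and 4.55% ± 0.0279 at codon positions 1, 2 and 3. In the knockout they were 2.39% ± 0.0265, 2.74% ± 0.0232 and 2.64% ± 0.0202. Position 1 was lowest for C in each group.

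The neighbouring base mattered more for C than for A. C after an A averaged 5.76% ± 0.00788 in wild type against 3.57% ± 0.0318 in the knockout (94 positions), and C after a C 3.46% ± 0.0390 and 1.93% ± 0.0152 (119 positions). By the 3′ neighbour, C before a C showed the widest gap, 4.84% ± 0.0195 against 2.50% ± 0.0280, a ratio of 1.93. The 21 C before a G averaged 5.76% in wild type, where the other mRNAs had 4.32%. A positions in wild type ranged from 2.71% after a G to 3.04% after a T, and from 2.66% before an A to 3.23% before a C.

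Runs of at least 4 equal bases differed along their length. In the 8 A runs of ND2 the last base averaged 2.91% and 3.06% in wild type and the first 1.85% and 1.92%. The first-base mean was lowered by values near the floor at 4604, 5281 and 5401 (0.185%, 0.213% and 0.163% in wild-type replicate 1). In the run at 5428 the first base was instead above the last, with 3.62% and 4.11% against 3.43% and 3.34%. In the 10 C runs the mean was higher at the first base, 4.42% and 4.35%, than at the last, 3.28% and 3.25%. The C runs at 4794 and 5231 went the other way in wild type. Their first bases had 0.634% and 0.626%, and 3.26% and 3.20%. Their last bases had 4.795% and 4.93%, and 4.09% and 4.12%. The longest run of either base, the 7 A at 4604 to 4610, lies in the loop of the hairpin at 4568. It had 0.093% and 0.091% at 4605 and 2.08% and 2.42% at 4607 in wild type. Of the 4 A positions under the lower limit of 0.002, 3 are the first bases of this run, and the last is at 5401.

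The other 2 untested positions lay over the upper limit of 0.3. The A at 4768 had a mismatch of 96.6%, 97.8%, 95.2% and 95.8% in the 4 libraries (wild type, then knockout), with 90.7%, 89.9%, 94.1% and 94.8% on the opposite strand. The C at 5338 had 92.2%, 93.1%, 95.5% and 95.4%, with 88.8%, 90.1%, 94.4% and 94.8% on the opposite strand. Both groups and both strands were at this level, so these positions carry no DMS measure here. Among background bases, the T at 4611 after the A run had 3.74% and 2.64% in wild type against 3.51% and 3.42% in the knockout, and the T at 4865 had 2.41% and 2.40% and then 1.20% and 1.19%.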

How the data were processed

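Per the file headers, the deposited values are fractions for each position of each strand: the authors' mismatches, mismatches with deletions, and the base. The submitters' processing notes name cutadapt and Bowtie2; their versions, filters, any coverage minimum and the build are not given in the sources used here. The gene table lists 41 nuclear copies named as ND2 pseudogenes, and how shared reads were treated is likewise not given.

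Tested positions were A or C whose fraction averaged 0.002 to 0.3 over the 4 libraries. Values were log2(fraction + 0.001), centred on each library's median. limma 3.58.1 in R 4.3.3 (lmFit, eBayes with trend; no trend for the Gini index) was fitted over 9910 positions, over 50-nt windows holding 8 or more of them, or over 28 genes (12 mRNAs, 2 rRNAs, 14 tRNAs), two-sided, with Benjamini-Hochberg adjustment at 0.05; it was tested on simulated data. ViennaRNA 2.7.2 gave RNAplfold probabilities (window 240 nt, span 160 nt, 37 °C) and folds with the same maximum span. Python 3.11.15 did the rest. Alternatives changed the centring, pseudocount, limits, column, base, libraries, replicate block and prediction. With fractions alone, the number of libraries limits the precision.

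Named positions were the first and last codon, positions over 0.3, the 5 highest in wild type, the 5 largest rises and falls, the 3 highest G or T, the extreme windows and 3 hairpins. The rises and falls were taken only from positions past the limma threshold whose groups did not overlap. The members and lists were chosen with earlier results of these data known. The short hairpins, runs, bins of level and guided folds were chosen after seeing the data.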

Additional observations from a re-analysis of the deposited data

How the results depend on the processing

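The replicate block gave 523 position calls against 543 without it and changed no other call. The replicate numbers do not pair the libraries: with only 2 pairs, deviations of replicate 1 correlated at 0.000704 over all positions and 0.0453 over ND2. Without centring the ND2 mean change was -0.52, the median change at A -0.35, and the changes of nt 51 to 100 and 301 to 350 -0.20 each. With A positions alone the position calls numbered 206, the changes of nt 851 to 900 and 951 to 1000 were 0.10 and 0.13, and the first-50-nt difference was 0.00108. With C positions alone the calls numbered 286, the C median 0.11 (also with A and C centred separately) and the difference to the other mRNAs -0.032. The codon position difference was -0.00354 with a pseudocount of 0.01, -0.000358 with a mean fraction of at least 0.01 and -0.00858 with C alone. Leaving out each library gave 461 to 507 position calls, Gini changes of -0.0410 to -0.0400, codon position differences of -0.00208 to 0.0107 and first-50-nt differences of -0.0202 to 0.00389. The 12 named positions kept their direction and call under every alternative that tested them. Most of them had been chosen from the same libraries as the largest changes past the threshold, so this is not an independent check. Causes were not tested. The unknown depth and the 2 libraries a group limit all values, and an untreated library was not analysed here.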
